A study of Mus musculus with 2 samples.

Results

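Interferon-stimulated genes, with the IRF and STAT transcription factors that switch them on, were followed in mouse liver as a set of 36 genes. The set held 8 guanylate-binding and immunity-related GTPases, called gamma-type here because interferon gamma is their best known inducer, and 18 effectors typical of type I interferon. It also held 9 IRF and STAT factors and the feedback inhibitor Socs1. A member was read by the array probe sets annotated to its symbol and to no other symbol, and genes of antigen presentation and chemokines were not taken into the set. Such a probe set was present for 34 of the 36 genes, out of 18194 genes read in the same way, and 27 of the 34 were bright enough to be counted.

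The diosgenin array carried liver RNA pooled from 3 mice of the outbred stock ICR. They had received the basal diet CRF-1 with 500 ppm diosgenin, a steroidal sapogenin of plants, for 4 weeks from 9 weeks of age. The control array carried liver RNA pooled from 3 ICR mice given CRF-1 alone over the same weeks, so that both pools came from mice of 13 weeks, kept 3 to a cage. Pooling leaves no spread between mice to be measured, and the labels do not say how many cages a diet had. Each diet had 1 array, so the values below carry no test and no error, and a gene called higher or lower is so on the diosgenin array. A lower count of cells of a type and less RNA per cell cannot be told apart in such samples.

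The deposited values were linear intensities, 1 for each probe set, with a 2% trimmed mean of 96.9 on both arrays. Signals under a floor of 10.7 were set to the floor. The probe set with the highest mean signal stood for its gene, which was counted where that mean reached 28.4, which left 9732 genes with a median log2 ratio of −0.01. Of the markers fixed for hepatocytes 9 of 10 were read, with signals of 8429 and 9517 for Alb on the diosgenin and control arrays and a list median of 0.03. The spread of ratios depended on brightness. The central 95% of genes lay between −0.95 and 0.83 on the log2 scale in the dimmest quartile and between −0.47 and 0.44 in the brightest. Between these, the dimmer quartile reached from −0.63 to 0.62 and the brighter from −0.52 to 0.47. Between probe sets of 1 gene, log2 ratios differed with a standard deviation of 0.28, and this is the only repeat measurement in the data.

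Interferons act through paired receptors and JAK kinases. Type I interferon brings STAT2 and IRF9 into a complex that binds the interferon-stimulated response element, ISRE, whereas interferon gamma acts mainly through the gamma-activated site, GAS. IRF1 and other IRF proteins bind ISRE-like letters as well, so many genes answer to both interferons. In the liver, hepatocytes, Kupffer cells and endothelium all respond to interferon, and the GTPases that follow act against pathogens inside vacuoles, while the type I effectors act mostly against viral RNA and proteins.

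Promoter windows from RefSeq, reaching from 250 bases before to 50 bases after the gene's start, were matched for 30 of the 36 members. The windows of Gbp6, Iigp1, Usp18, Rtp4, Mx1 and Mx2 were not used here. An ISRE-type motif, GAAANNGAAA, and a GAS-type motif, TTCNNNGAA, were searched on both strands. The ISRE-type letters stood in the windows of 16 of these 30 members, 53.3%, against 1079 of 27025 genes with a window, 3.99%. The GAS-type letters stood in 9 of the 30, against 9.55% of all genes. By class, ISRE-type letters were found in 5 of 6 gamma-type GTPases, 8 of 14 type I effectors, 2 of 9 IRF and STAT factors and in Socs1. GAS-type letters were found in 2, 4, 3 and 0 of the same genes. The members were known interferon targets when they were listed, and a match is a description of letters.

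The 160 bases before the start are shown for 4 gamma-type GTPases, since most GTPases of this class were higher on the diosgenin array, with both motifs in capitals.
Gbp2 (GRCm38.p6 chr3:142620503-142620662, plus strand): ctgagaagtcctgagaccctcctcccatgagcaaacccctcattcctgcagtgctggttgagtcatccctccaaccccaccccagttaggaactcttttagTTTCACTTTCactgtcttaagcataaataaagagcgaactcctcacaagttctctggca
Gbp7 (GRCm38.p6 chr3:142530176-142530335, plus strand): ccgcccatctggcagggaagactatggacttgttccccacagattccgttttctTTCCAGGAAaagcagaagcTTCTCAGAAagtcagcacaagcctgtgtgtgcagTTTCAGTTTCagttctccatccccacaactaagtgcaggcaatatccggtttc
Igtp (GRCm38.p6 chr11:58199396-58199555, plus strand): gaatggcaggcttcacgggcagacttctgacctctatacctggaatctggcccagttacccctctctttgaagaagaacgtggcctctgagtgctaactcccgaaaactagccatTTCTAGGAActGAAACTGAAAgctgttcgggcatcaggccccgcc
Irgm1 (GRCm38.p6 chr11:48871421-48871580, minus strand): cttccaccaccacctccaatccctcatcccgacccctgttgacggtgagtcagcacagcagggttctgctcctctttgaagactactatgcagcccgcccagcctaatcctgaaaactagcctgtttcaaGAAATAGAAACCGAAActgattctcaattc
Gbp2 and Gbp7 each had 1 ISRE-type match, beginning 59 and 53 bases before the start. Gbp7 had 2 GAS-type matches further upstream. In Igtp a GAS-type match lay beside an ISRE-type match, 45 and 34 bases before the start. Irgm1 had 2 overlapping ISRE-type matches and no GAS-type match.

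The same stretch is shown for 4 type I effectors above the filter, whose letters can be set beside those of the GTPases. All 8 promoters shown held ISRE-type letters, whereas 16 of the 30 members with a window held them and 20 held either motif. Xaf1, Oasl1 and Ifi35, effectors above the filter without ISRE-type letters, are not shown. Of the members at least 1.5-fold higher, Gbp2 and Gbp7 held ISRE-type letters. Xaf1, Irf7 and Irf9 held neither motif, and Usp18 had no window.
Bst2 (GRCm38.p6 chr8:71537473-71537632, minus strand): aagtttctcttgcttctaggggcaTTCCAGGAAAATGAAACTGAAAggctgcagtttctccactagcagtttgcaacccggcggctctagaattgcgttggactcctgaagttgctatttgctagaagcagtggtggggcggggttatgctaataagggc
Ifit3 (GRCm38.p6 chr19:34583369-34583528, plus strand): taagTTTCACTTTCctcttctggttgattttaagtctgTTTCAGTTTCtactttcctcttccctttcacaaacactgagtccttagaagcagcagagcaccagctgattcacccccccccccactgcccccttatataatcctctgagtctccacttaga
Oas1a (GRCm38.p6 chr5:120907526-120907685, minus strand): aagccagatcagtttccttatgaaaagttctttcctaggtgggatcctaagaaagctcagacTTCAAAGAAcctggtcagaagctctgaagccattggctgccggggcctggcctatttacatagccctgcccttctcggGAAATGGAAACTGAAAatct
Rsad2 (GRCm38.p6 chr12:26456453-26456612, minus strand): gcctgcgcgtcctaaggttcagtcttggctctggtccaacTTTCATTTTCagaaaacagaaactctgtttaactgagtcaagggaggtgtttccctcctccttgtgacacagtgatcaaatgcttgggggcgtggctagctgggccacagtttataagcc
Bst2 and Oas1a each had 2 overlapping ISRE-type matches and 1 GAS-type match. In Bst2 the GAS-type match ran into the ISRE-type ones. Ifit3 had 2 separate ISRE-type matches and Rsad2 had 1.

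Gamma-type GTPases of the set were mostly higher with diosgenin. Signals of 6 of the 7 that passed the filter were higher and that of 1 was lower, and their log2 ratios had a median of 0.36. Gbp2 and Gbp7 were at least 1.5-fold higher, and Gbp3, the eighth member, was too dim to be counted. Gbp2 passed the filter only through the diosgenin array, so its ratio had to be above 0. Among all 9732 genes 49.0% were higher, 2.84% were at least 1.5-fold higher and 3.61% were at least 1.5-fold lower.

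Gbp2, a guanylate-binding protein that coats pathogen vacuoles, had a signal of 62.8 on the diosgenin array and 25.8 on the control array, 2.43-fold higher. Its second probe set, which can bind related transcripts, read 45.0 and 25.6, 1.76-fold higher. Both probe sets put the diosgenin array above the control array, at dim signals. Both control signals were under the filter of 28.4, which the probe sets passed only through the diosgenin array. Gbp7, a relative that helps to build oxidase complexes on vacuoles, had signals of 132 and 82.1, 1.61-fold higher. Its other probe set read 46.3 and 44.0, a log2 ratio of 0.07, so the probe sets of Gbp7 did not show the same size of difference. Gbp6 read 156 with diosgenin and 122 on the control array, a log2 ratio of 0.36, while its other probe set gave −0.08. Gbp3 had signals of 19.1 and 12.0, under the filter, with a log2 ratio of 0.67. Gbp7, Gbp3 and Gbp2 lie in this order in 1 cluster on mouse chromosome 3, with 0 and 1 protein-coding genes between neighbours. How far a probe set of this family reads its relatives was not tested.

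The immunity-related GTPases were brighter on the array and differed less. Igtp, which guards cell membranes against the effector GTPases, had signals of 599.6 and 455 on the diosgenin and control arrays, a log2 ratio of 0.40. Ifi47, another GTPase of this family, had 448 and 363, a log2 ratio of 0.30. Iigp1, an effector that disrupts the vacuole of Toxoplasma, had 3056 and 2736, a log2 ratio of 0.16, and its second probe set gave 0.33. These 3 genes were all higher, by less than the central 95% band of their brightness. Irgm1, a regulator of the effector GTPases and of autophagy, was lower at 299.7 against 328, a log2 ratio of −0.13. It was the 1 gamma-type GTPase above the filter whose signal was below that of the control array.

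**Figure D1:**
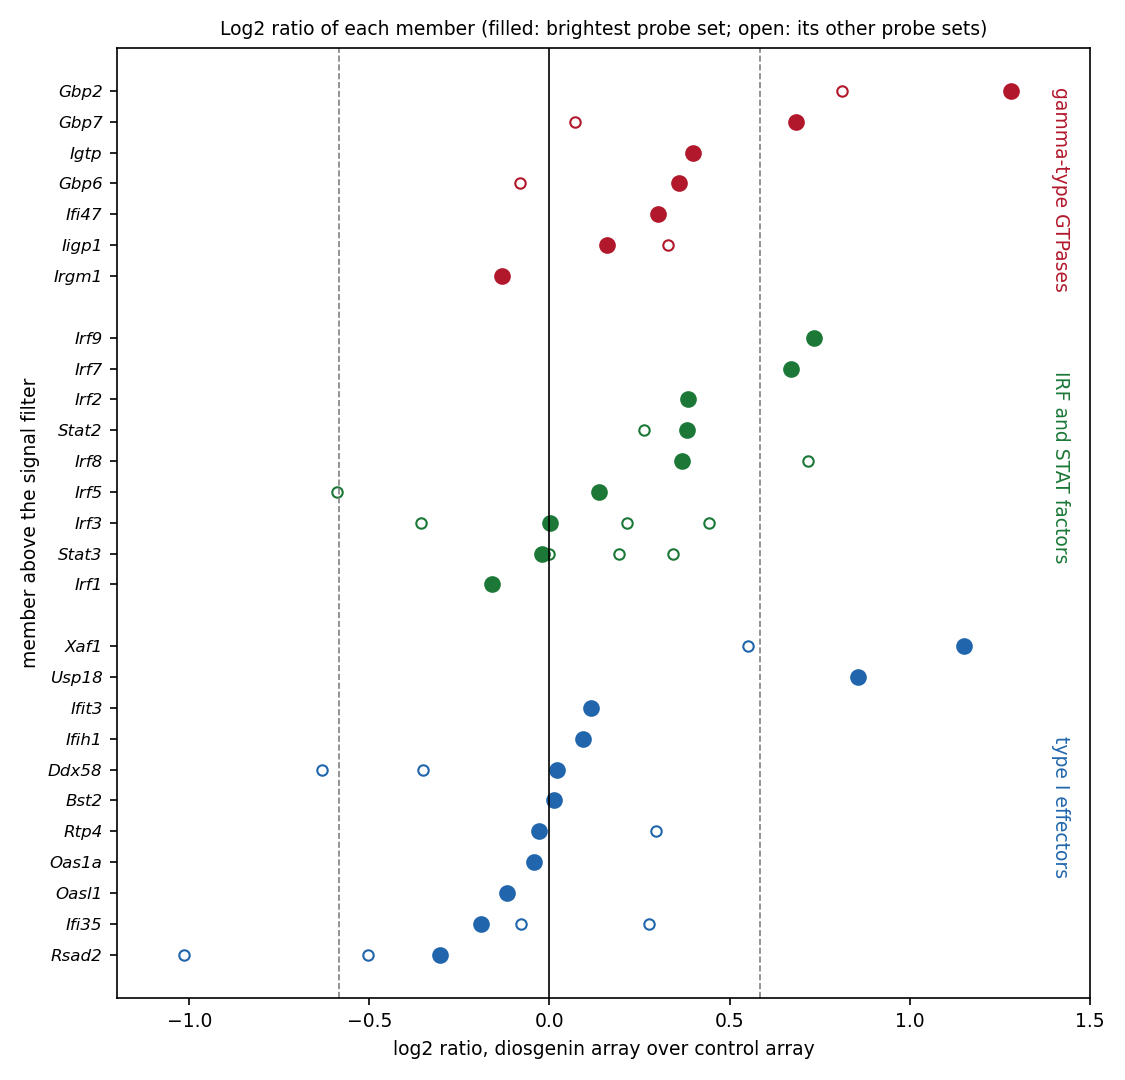
Log2 ratio of diosgenin signal over control signal (horizontal axis) for the 27 members above the signal filter (vertical axis), by class. Filled points are the brightest probe set of a gene and open points its other probe sets, and dashed lines mark 1.5-fold. Gbp2 at 1.28 and Xaf1 at 1.15 lie furthest to the right, and 9 of the 11 type I effectors lie between −0.30 and 0.11.

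All 9 IRF and STAT factors passed the filter. By the brightest probe set the diosgenin array was higher for 7 of them and lower for 2, where 49.0% of all genes were higher, and their log2 ratios had a median of 0.37. The 7 include Irf3 and the 2 include Stat3, both nearly level and with probe sets of either sign. Irf9 and Irf7 were at least 1.5-fold higher, as were 2.84% of all genes. Without probe sets shared between transcripts, the median was 0.25 over 8 factors, of which 5 were higher and 3 lower. A filter raised to the 75th percentile left 7 factors, with a median of 0.14.

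Irf9, the DNA-binding part of the type I complex, had signals of 141 on the diosgenin array and 84.9 on the control array, 1.66-fold higher. Stat2, its partner in that complex, had 146 and 112, 1.30-fold higher, and a second probe set gave 92.1 and 76.8. Irf9 and Stat2 were thus both higher, Irf9 beyond the band of its brightness and Stat2 within it. Irf7, which amplifies the production of type I interferon, had signals of 87.3 and 54.9, 1.59-fold higher, also beyond the band.

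Irf2, a factor that competes with Irf1 for the same sites, read 237 and 181, a log2 ratio of 0.38, by a probe set shared between transcripts. Irf1, the main IRF induced by interferon gamma, was lower at 225 against 251, a log2 ratio of −0.16. The log2 ratios of this opposed pair thus had opposite signs, both within their band. Irf8, a factor of macrophages and dendritic cells, had 53.0 and 41.1, a log2 ratio of 0.37, and its dimmer probe set gave 0.72. Irf5, another factor of myeloid cells, had a log2 ratio of 0.14, with 99.0 and 90.1, while its dimmer probe set gave −0.59. The sign for Irf5 therefore depended on the probe set.

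Irf3, the constitutive factor that first answers viral sensing, was level, at 432 on both arrays. Its brightest probe set can bind other transcripts, and the remaining 3 gave log2 ratios of −0.36, 0.44 and 0.21. No direction can be given for Irf3. Stat3, which carries interleukin signals of the acute phase in liver, had 597 and 605, a log2 ratio of −0.02. Its second probe set read 484 and 424, a log2 ratio of 0.19, and the next read 43.5 and 34.3, a log2 ratio of 0.34. The sign for Stat3 therefore depended on the probe set.

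Type I effectors were evenly split. The 11 that passed the filter divided into 6 higher and 5 lower, where 49.0% of all genes were higher, and their log2 ratios had a median of 0.01. Xaf1 and Usp18 were at least 1.5-fold higher and 0 were at least 1.5-fold lower, beside 2.84% and 3.61% of all genes, and the other 9 lay between −0.30 and 0.11, inside the band of their brightness.

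Xaf1, a partner of the apoptosis inhibitor XIAP, had signals of 83.5 on the diosgenin array and 37.6 on the control array, 2.22-fold higher. Its second probe set read 30.1 and 20.6, 1.46-fold higher. Both readings of Xaf1 were higher with diosgenin. Usp18, which removes Isg15 from proteins and dampens the type I receptor, had 47.7 and 26.3, 1.81-fold higher, just beyond the band that ended at 0.83 with its own log2 ratio of 0.86. It had 1 probe set, which passed the filter only through the diosgenin array.

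Several effectors that act on viral RNA or virus release had small ratios by their brightest probe set. Ifit3, of the family that binds viral RNA ends, had 47.3 and 43.7, a log2 ratio of 0.11. The RNA sensors Ifih1 and Ddx58 had log2 ratios of 0.09, at 182 and 171, and of 0.02, at 125 and 124. The dimmer probe sets of Ddx58 gave −0.63 and −0.35, so the gene was level or lower depending on the probe set. Bst2, the tether that holds budding virus at the membrane, had signals of 553 and 547, a log2 ratio of 0.01. Rtp4, a chaperone of receptor transport, had 125 and 128, a log2 ratio of −0.03. Its dim second probe set gave 0.30, at 13.2 and 6.18, with the control signal under the floor.

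The oligoadenylate synthetase Oas1a, which activates RNA decay, had 60.3 and 62.1, a log2 ratio of −0.04. Its relative Oasl1, an OAS-like protein, had 50.8 and 55.1, a log2 ratio of −0.12. Both differences were within the band of their brightness. Ifi35 was lower by its brightest, shared probe set, at 647 and 738, a log2 ratio of −0.19, and higher by another probe set, at 180.2 and 149, a log2 ratio of 0.28. Rsad2, or viperin, which makes a chain-terminating nucleotide, had the lowest ratio of the class, with 53.4 and 65.9, a log2 ratio of −0.30. Its other 2 probe sets gave −0.50, at 28.1 and 39.9, and −1.01, at 16.6 and 33.6. The brighter of these passed the filter only through the control array, and the dimmer was under it. All 3 readings of Rsad2 were lower with diosgenin.

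**Figure D2:**
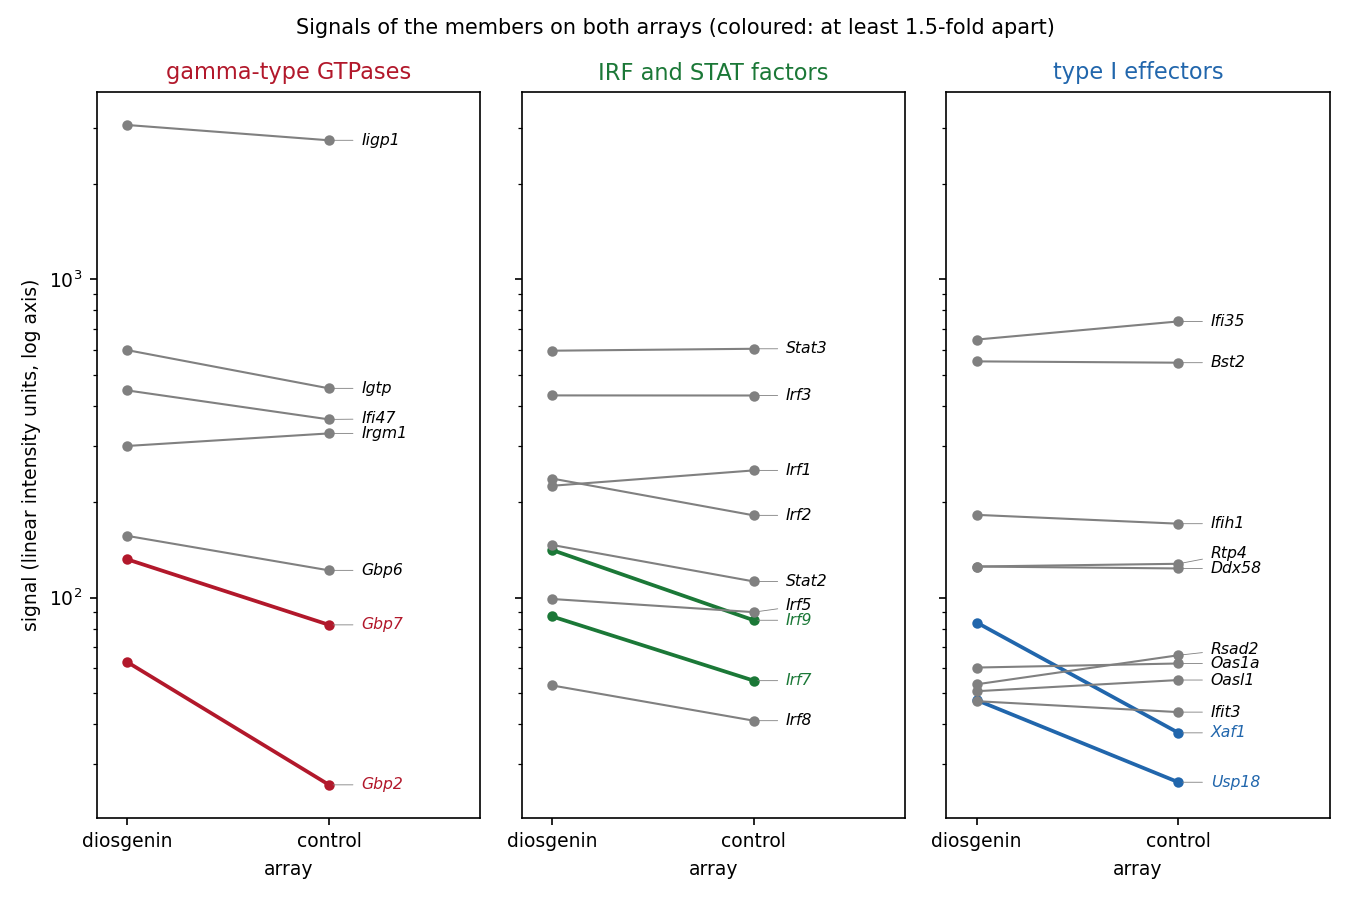
Signals of the 27 members above the filter, in linear intensity units on a log axis, on the diosgenin array (left) and the control array (right of each panel), 1 panel for each class. Each line joins the 2 signals of 1 gene, coloured where they were at least 1.5-fold apart, as for Gbp2 at 62.8 and 25.8. Heights of different genes depend on their probe sets and are not compared.

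Under the filter were 7 members. Ifit1 and Ifit2, relatives of Ifit3, had signals of 21.4 and 28.5 and of 17.9 and 15.3. Oasl2 had 26.3 on the diosgenin array and 9.86, under the floor, on the control array, which gives at least 2.44-fold higher at signals too dim to be counted. Mx1, Mx2 and Socs1 were below the floor on both arrays and gave no ratio. Isg15 and Ifi44 had no probe set with their symbol alone.

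Over all 27 members that passed the filter, 19 were higher and 8 lower, and the median was 0.14 on the log2 scale. At least 1.5-fold higher were 6, namely Gbp2, Gbp7, Xaf1, Usp18, Irf7 and Irf9, and 0 were at least 1.5-fold lower, beside 2.84% and 3.61% of all genes. At least 2-fold higher were 2, Gbp2 and Xaf1, beside 0.555% of all genes. The same 6 members lay beyond the central 95% band of their brightness. Gbp2 and Usp18 were under the filter signal on the control array and passed by their mean only through the diosgenin array, so their log2 ratios had to be above 0. The other 4 were above it on both arrays. A filter raised to the 75th percentile left Gbp7 and Irf9 of the 6, since the other 4 were too dim. When the median over a gene's probe sets was used, Gbp7 had a log2 ratio of 0.38 and was no longer counted.

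**Figure D3:**
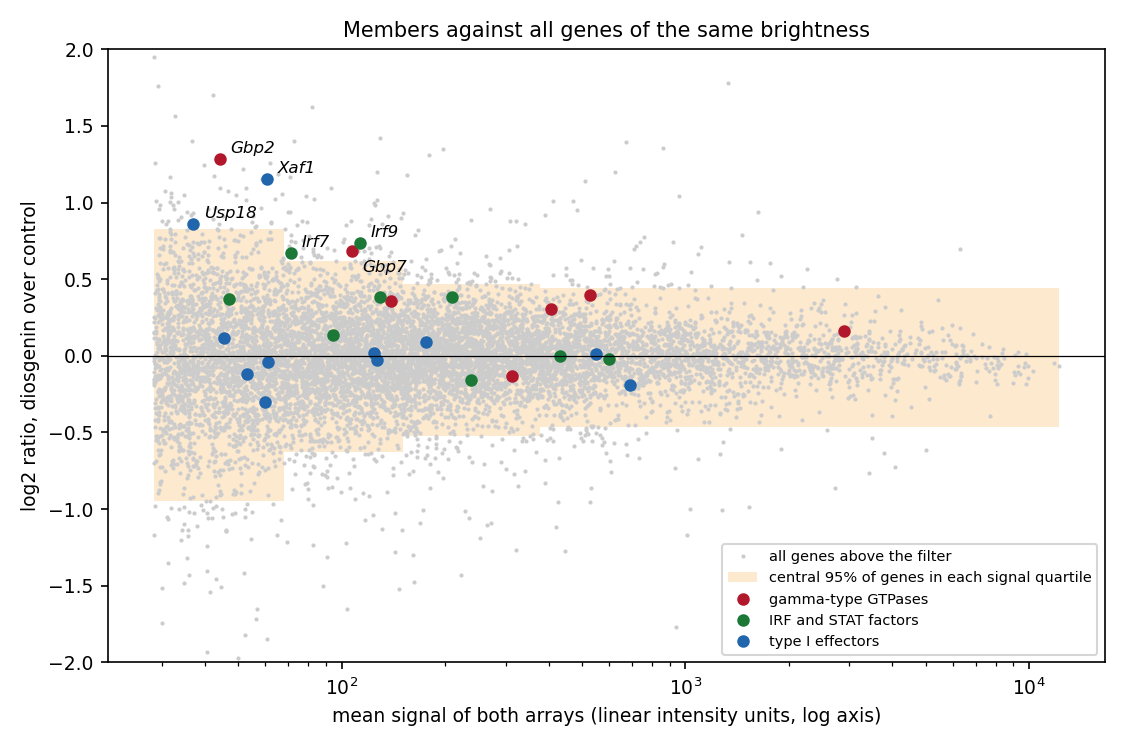
Log2 ratio of diosgenin signal over control signal against the mean signal of both arrays (log axis), for all genes above the filter in grey and the members in colour by class. Shaded boxes hold the central 95% of genes in each quartile of signal, and 14 genes beyond 2 on the log2 scale are not drawn. The 6 labelled members lie above the boxes, at mean signals of up to 113.

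Set side by side, the gamma-type GTPases of the set had a median 0.35 above that of the type I effectors on the log2 scale, at 0.36 against 0.01. The difference was between 0.29 and 0.37 over the 7 other settings tried. The IRF and STAT factors had a median 0.35 above the type I effectors, but this difference was less stable over the same settings. Only the brighter genes, from the 75th percentile up, gave medians of 0.14 for the factors and 0.01 for the effectors. Leaving out shared probe sets gave 0.25 and 0.02. Members are not replicates of a diet, so no test was made between classes. The contrast holds for the GTPases listed as members only. GTPases outside the set went both ways, with Gbp8 at −0.40, Irgm2 at −0.03 and a probe set shared by Tgtp1 and Tgtp2 at 1.30. By ISRE-type letters alone, among members above the filter with a window, the median log2 ratio was 0.10 over 12 with such letters and 0.14 over 11 without. Of the members without them, Irf1, Irf8 and Ifi35 held GAS-type letters. Of the members that held ISRE-type letters, 4 gamma-type GTPases had a median of 0.54 and 6 type I effectors one of 0.02. The 4 were Gbp2, Gbp7, Igtp and Irgm1, at 1.28, 0.68, 0.40 and −0.13. Gbp2 among them passed the filter only through the diosgenin array.

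The other genes of the pathway, from 7 lists with 104 genes, were mostly within 1.5-fold. The filter was passed by 62, of which 36 were higher and 26 lower, at a median of 0.04 on the log2 scale, where 49.0% of all genes were higher. At least 1.5-fold higher were 2 of them and at least 1.5-fold lower 0, beside 2.84% and 3.61% of all genes, so that the share of higher calls was near that of all genes. Receptors and kinases were split, with 4 higher and 4 lower. Ifnar1, a chain of the type I receptor, had signals of 105 on the diosgenin array and 154 on the control array, a log2 ratio of −0.54, while the other chain, Ifnar2, had 856 and 679, a log2 ratio of 0.33. Of 2 dimmer probe sets of Ifnar2, 1 gave −0.21 and the other 0.20, and that of Ifnar1 gave 0.10. Ifngr1, a chain of the gamma receptor, had 81.8 and 110.3, a log2 ratio of −0.43. For Ifngr2, its other chain, the brighter probe set gave −0.26, at 54.0 and 64.8, and the other gave 0.23, at 54.2 and 46.2, so that no direction can be given. Of the kinases behind these receptors, the brightest probe set gave a log2 ratio of 0.17 for Jak1, 0.18 for Tyk2 and −0.01 for Jak2, and the others ranged from 0.01 to 0.06, −0.20 and 0.33. Receptor chains and kinases thus went both ways. The other STAT factors above the filter, Stat5a, Stat5b and Stat6, had log2 ratios of 0.03, 0.44 and 0.07 by their brightest probe set and of −0.41, 0.11 and −0.10 by their other one.

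Sensors and adaptors were divided into 4 higher and 4 lower, between −0.40 and 0.23. Among other interferon-stimulated genes, 30 passed the filter. Of these 21 were higher and 9 lower, around a median of 0.12, in a range from −0.35 to 0.40 that stayed under 1.5-fold. In the list of other GTPases 2 were read singly, Gbp8 and Irgm2, both lower, with log2 ratios of −0.40 and −0.03. Interferon genes themselves were dim, with 2 of 6 above the filter, Ifna1 and Ifna2, both lower, at log2 ratios of −0.11 and −0.46. Ifng was under the filter. Of 9 inhibitors 4 were higher and 5 lower, and the 2 at least 1.5-fold higher were cytokine signalling suppressors. Socs3, induced mainly by interleukin signals, had 93.3 and 48.6, 1.92-fold higher. That probe set and the next brightest, at a log2 ratio of 0.81, can both bind other transcripts. The remaining Socs3 probe set gave 0.35, which is under 1.5-fold. Socs2, induced by growth hormone, had 269 and 159, 1.70-fold higher, with a second bright probe set at 0.83, while 3 of its dim probe sets gave ratios below 0.

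**Figure D4:**
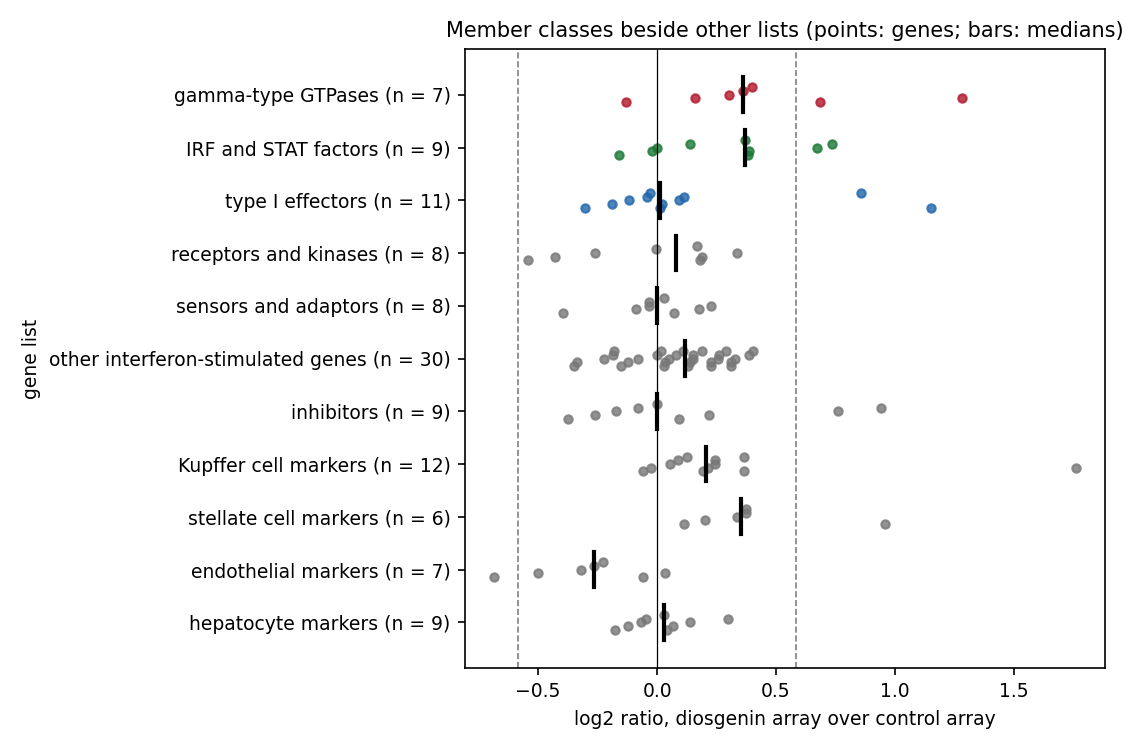
Log2 ratios of diosgenin signal over control signal (horizontal axis) for genes above the filter, by list, with medians as bars and dashed lines at 1.5-fold. The medians of the gamma-type GTPases and of the IRF and STAT factors, 0.36 and 0.37, lie to the right of those of the type I effectors, 0.01, and of the hepatocyte markers, 0.03, while the stellate cell markers have 0.35 and the Kupffer cell markers 0.20.

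Markers of other cell types were read beside these genes, each by its brightest probe set. Of 12 Kupffer cell and macrophage markers, all above the filter, 10 were higher and 2 lower. Their median was 0.20 on the log2 scale, with summed signals of 3284 on the diosgenin array and 2924 on the control array. Marco, a scavenger receptor of macrophages, was the 1 marker of this list at least 1.5-fold apart, at 45.1 and 13.3, and passed the filter only through the diosgenin array, whereas the Kupffer cell markers Clec4f, Cd5l and Timd4 had log2 ratios of 0.36, −0.02 and 0.05. Markers of T and NK cells, the usual sources of interferon gamma, were dim. Of 12 read, 10 were under the filter, with signals up to 16.6 on the diosgenin array and 13.5 on the control array, and the 2 above it summed to 61.4 and 68.1. Of 7 endothelial markers 6 were lower, with a median of −0.27 and sums of 1163 and 1572. All 6 stellate cell markers were higher, with a median of 0.35 and sums of 2663 and 2122. The dimmer probe sets of Lrat and Dcn gave log2 ratios of −0.51 and −0.16, and those of Des and Colec11 gave 0.40 and 0.41. Hand2, at 54.0 and 27.8, passed the filter only through the diosgenin array. Few markers of other immune cells or of bile ducts passed the filter, with 1 of 4 read for B cells, 1 of 6 for dendritic cells, 0 of 4 for neutrophils and 1 of 4 for bile duct cells. The part of these cell types in the ratios of the members was not tested.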

How the data were processed

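Liver RNA of 2 pools of 3 mice was read on 1 Affymetrix array for each diet. The deposited values were linear intensities, 1 signal for each of 45101 probe sets. The submitters' processing notes name GCOS, the scanner maker's software, with no version. How signals were summarised and scaled, and the detection calls, are not stated in the sources at hand. Signals on both arrays ranged from 0.0111 to 12823, with medians of 17.0 on the diosgenin array and 17.1 on the control array. The number of arrays limits the precision.

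Symbols of probe sets came from the platform annotation, in which 34958 had 1 symbol, 932 several and 9211 none here. All 36 members matched the RefSeq gene table of GRCm38.p6, used for names and gene order. From the deposited intensities, log2 ratios of diosgenin over control were computed with Python 3.11.15, numpy 2.4.6 and pandas 2.3.3. The floor was the 40th percentile of all signals and the filter the 60th percentile of probe set means. No test was made, since each diet had 1 array. The counting was tested on simulated data. Every member above the filter was named. Of the other pathway genes, those at least 1.5-fold apart, the receptor chains and the JAK kinases were named by rule, and the other pathway genes were named after their values were seen. Marker genes were named as examples of their lists. The members and all lists were chosen with earlier results of these data known. Floor, filter, probe set rule, shared probe sets and centring were varied.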

Additional observations from a re-analysis of the deposited data

Results flagged for a closer look

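A probe set annotated to both Tgtp2 and Tgtp1, near-identical immunity-related GTPases, carried several symbols and so entered none of the comparisons. It read 146 on the diosgenin array and 59.6 on the control array, a log2 ratio of 1.30, 2.46-fold higher. It was singled out because it holds a signal outside the genes counted that is above that of the control array. The ratio is of the size of that of Gbp2, and there is no second array to repeat it.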

How the results depend on the processing

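The 7 alternatives changed the floor, the filter, the probe set rule, shared probe sets or the centring. The count of members at least 1.5-fold apart was 6 and became 2 with the filter at the 75th percentile, where 18 members were left; under the other 6 alternatives it was 5 to 8. The median log2 ratio of the IRF and STAT factors, 0.37, became 0.14 over the 7 factors left by that filter and 0.25 over the 8 left without shared probe sets. The medians of the gamma-type GTPases and of the type I effectors stayed within 0.1 of their values under all 7. Of 179 recomputed single log2 ratios 6 moved by more than the 0.28 between probe sets of a gene. With the median of all probe sets Gbp7 was at 0.38, Xaf1 at 0.85, Ddx58 at −0.35 and Irf5 at −0.23, and without shared probe sets Ifi35 was at 0.28 and Irf3 at −0.36. The alternatives also act on the same 2 arrays, so they say nothing of the spread between mice. Of 10 members with several probe sets above the filter, the median of the others had the sign of the brightest in 6, 60%, against 62.9% of 4079 genes, and all others had it in 5, 50%, against 51.4%. No paired analysis was possible because each diet had 1 array.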

Other observations

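Other probe sets with several symbols, which the comparisons left out, read interferon-stimulated genes. Isg15, a ubiquitin-like modifier, shares its probe set with Gm9706, which had signals of 46.6 on the diosgenin array and 44.9 on the control array, a log2 ratio of 0.05. Ifi203, a DNA-binding member of the p200 family, was read with related loci by 2 probe sets above the filter, at log2 ratios of 0.42 and 0.19. The probe set annotated to Ifi203 alone was level, at 27.4 on both arrays, under the filter. The very large inducible GTPase Gvin1, read together with Gm4070, had 69.1 and 59.9, a log2 ratio of 0.21. The promoter window of Isg15 held 3 overlapping ISRE-type matches, and those of Ifit1 and Ifit3 2 separate ones each.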
